A study of Mus musculus with 3 samples.

Results

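The antioxidant, glutathione and iron storage genes described here are 35 mouse genes of the NRF2-controlled defence, the glutathione and thioredoxin systems, the superoxide- and peroxide-removing enzymes and iron storage and uptake. They were chosen by symbol, with earlier results of these data known. Each symbol had exactly 1 row, so 35 of the 43346 genes in the table were followed, and all 35 were annotated as protein-coding. RNA-seq was carried out on 3 libraries of a single group, Mouse MSC replicates 1, 2 and 3. These are adipose-derived mesenchymal stem cells (MSC, plastic-adherent stromal cells) of the C57BL/6 strain, isolated from the fat pads of adult mice and grown in advanced MEM with 10% FBS. No treatment, genotype or time point was contrasted, so levels and their spread over libraries are given and no test between conditions was possible. The labels do not name the animal or the culture behind each library, and the spread between them may therefore be technical.

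NRF2 (Nfe2l2) is a transcription factor that KEAP1 holds in the cytosol and marks for degradation. When KEAP1 is oxidised or bound by electrophiles, NRF2 enters the nucleus and induces genes with antioxidant response elements. Superoxide dismutases turn superoxide into hydrogen peroxide, which catalase, glutathione peroxidases and peroxiredoxins reduce to water. Ferritin stores iron in a non-reactive form, which keeps it from the Fenton reaction with peroxide, and iron-regulatory proteins adjust ferritin translation and the stability of transferrin receptor mRNA to the iron supply.

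Levels are RPKM (reads per kilobase of gene, scaled to the reads of the library), which adjusts for gene length. For 21 of the 35 genes the length that fitted was that of all annotated exons together plus 1 base. Gss, for example, was scaled by 5916 bases. Where this exceeds the length of the transcripts present, RPKM is lowered, so ranks and ratios between genes also depend on the annotation. How far they do was not tested. A gene was called detected at 1 RPKM or more in every library. All 35 genes were detected, against 28.3% of all genes and 47.4% of protein-coding genes in the table. Because the genes were chosen with earlier results known, this share and the levels that follow describe the list and are no test. Their values ran between 4.28 and 1127 RPKM. The mean was 10 RPKM or more for 29 of them and 100 RPKM or more for 4. The median of the 35 means was 19.6 RPKM, against 6.55 RPKM over the 10447 detected protein-coding genes, and 33 of the 35 lay above that median. Among all protein-coding genes, 22 of the 35 were at or above the 90th percentile. On the log2(RPKM + 1) scale the median of the 35 exceeded the protein-coding median by 3.53 ± 0.02 (SD over 3 libraries), and by 1.47 when only detected genes were counted.

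**Figure D1:**
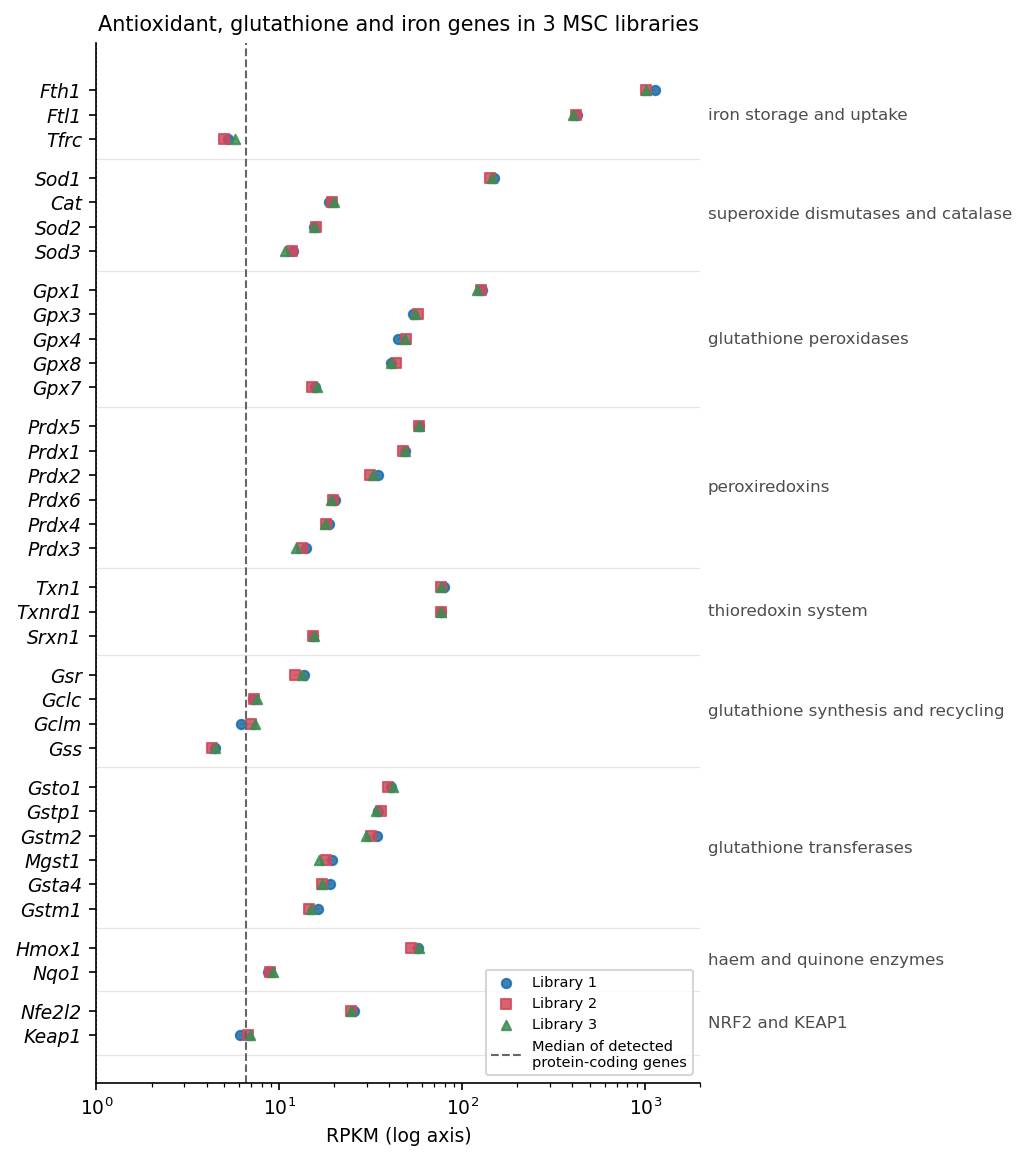
RPKM of each of the 35 genes in libraries 1, 2 and 3 (1 point per library, log axis), grouped by role and ordered by mean within a role; the dashed line is the median of detected protein-coding genes, 6.55 RPKM. Fth1 and Ftl1 sit far right of the other genes, and Tfrc and Gss lie left of the dashed line in all 3 libraries.

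**Figure D2:**
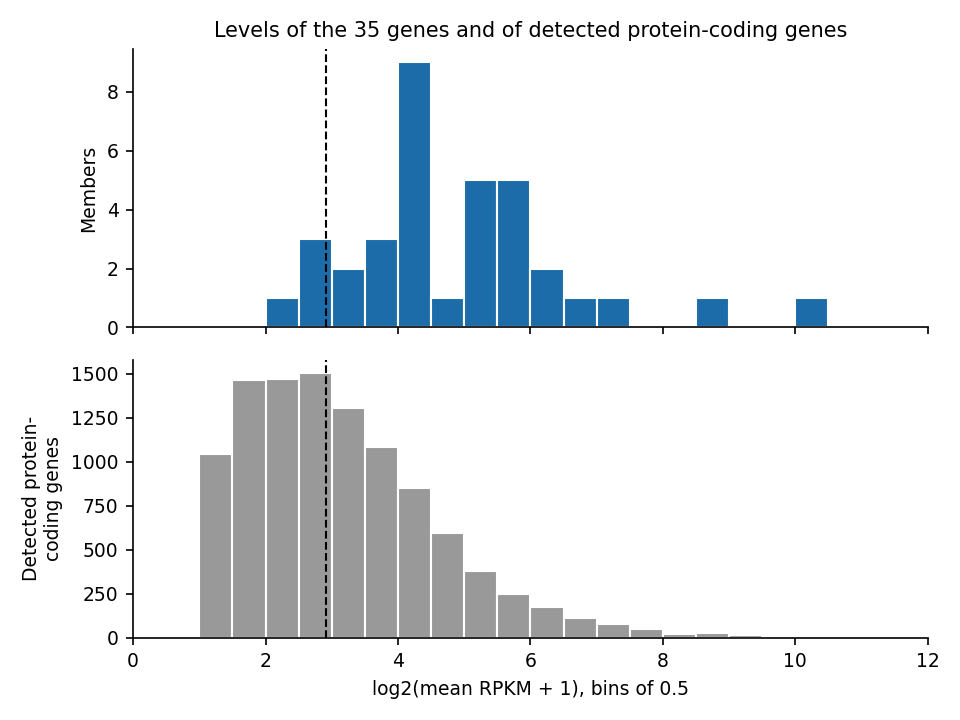
Number of the 35 genes (top) and of the 10447 detected protein-coding genes (bottom) in bins of 0.5 on the log2(mean RPKM + 1) scale, with the median of detected protein-coding genes as a dashed line. 33 of the 35 genes lie right of that line, and Fth1 alone fills the bin furthest right.

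The library totals were inferred from the values, since each RPKM is a whole number of reads divided by gene length and library total. They came to 28791582, 32962010 and 32001149 reads for libraries 1, 2 and 3. A gene of the 35 had between 355 and 28781 reads in a library. For 14 of the genes the length was the smallest one that gave whole reads, so their reads are the lowest that fit and their counting error is the highest. The counting error, as a coefficient of variation, was 0.595 to 5.06% per gene, and the coefficient of variation over libraries was 0.246 to 9.29%, with a median of 3.31%. It was at or above the counting error for 24 genes and below it for 11. The cultures were described with 7 marker lists, chosen with earlier results of these data known. The lists give levels and do not settle the identity of the cells. All 10 MSC surface markers were detected, led by Itgb1, Vcam1 and Pdgfrb, and Nt5e was the lowest of them. None of 8 erythroid markers was detected (highest Alas2, Epor and Klf1). Of the haematopoietic list 1 of 10 was detected (highest Cd14, Itgam and H2-Ab1, lowest Ly6g), of the endothelial list 1 of 10 (highest Kdr, Cdh5 and Tek, with Cldn5 listed at 0), and of the mature adipocyte list 2 of 11 (highest Lpl, Fabp4 and Pparg, with Cfd listed at 0). All 9 mesothelial markers were detected, with a summed level of 211 to 231 RPKM, led by Upk1b, Upk3b and Krt18, and Krt19 was the lowest. Of 12 macrophage markers 7 were detected, with a summed level of 44.8 to 47.4 RPKM. Lyz2 led these with 26.9, 24.5 and 27.2 RPKM, followed by C1qb (4.32 RPKM) and Cd68 (3.42 RPKM), while Cd163, a scavenger receptor, was the lowest and was listed at 0 in libraries 1 and 2. The part of such cells in the levels below was not tested, and in a culture sequenced in bulk the number of expressing cells and the RNA per cell cannot be told apart.

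Ferritin mRNAs dominated the group. Fth1, the ferritin heavy chain with the ferroxidase activity that oxidises iron for storage (ENSMUSG00000024661, chr19:9980598-9985098 on GRCm38, plus strand), had 1127, 1007 and 1008 RPKM in libraries 1, 2 and 3. It was the 10th most abundant protein-coding gene by mean RPKM. Ftl1, the light chain that aids mineral formation in the core (ENSMUSG00000050708, chr7:45457944-45459884, minus strand), had 425, 417 and 405 RPKM and ranked 47th. The libraries agreed on the order, with every Fth1 value above every Ftl1 value. The heavy chain was 2.42 to 2.65 times the light chain within a library, a log2 ratio of 1.33 ± 0.07 (SD, n = 3). Together they held 56.5 ± 1.02% of the summed RPKM of the 35 genes and 0.740 ± 0.0401% of that of all protein-coding genes. The other 33 genes held 0.570 ± 0.00696% of the protein-coding sum.

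Tfrc, the transferrin receptor that takes up transferrin-bound iron (chr16:32608920-32632794, plus strand), was at the other end of the group, with 5.23, 5.01 and 5.71 RPKM. Only Gss was lower among the 35 genes. Fth1 exceeded Tfrc 177- to 216-fold within a library and Ftl1 exceeded it 71.0- to 83.1-fold. These RNAs carry the elements through which iron-regulatory proteins act, and their sequences are shown because Fth1, Ftl1 and Tfrc share this one element. The search, on the strand of the transcript, was for a C, 5 bases, the loop CAGTGN with a last base other than G, and 5 bases that pair with the first 5 (G-T pairs allowed). The hexaloop is in capitals.

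Fth1, 5′ UTR, chr19:9982734-9982759, plus strand: cctgcttcaaCAGTGCttgaacggaa

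Ftl1, 5′ UTR, chr7:45459780-45459805, minus strand: cttgcttcaaCAGTGTttgaacggaa

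Tfrc, 3′ UTR, chr16:32631221-32631246, plus strand: ttatcggaagCAGTGCcttccataat

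Tfrc, 3′ UTR, chr16:32631600-32631625, plus strand: ttatcgggagCAGTGTcttccataat

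Tfrc, 3′ UTR, chr16:32631665-32631690, plus strand: atatcggagaCAGTGAtctccatatg

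Tfrc, 3′ UTR, chr16:32631712-32631737, plus strand: ttatcgggaaCAGTGTttcccataat

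The element stood before the coding sequence in both ferritin chains and 4 times after it in Tfrc. The only other match among the 35 genes was in the coding sequence of Keap1. Of 21614 coding genes, 1.01% had a match in a coding transcript, so the letters also occur outside iron genes. Of the 23 iron transport and sensing genes listed beside the 35, Slc40a1 alone had a match, in its 5′ UTR. A match is a description of the letters, and neither protein binding nor translation was measured.

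Iron handling outside the 35 genes was uneven, with 18 of 23 listed genes detected. Trf, transferrin itself, led the list with 71.5, 72.0 and 70.9 RPKM, which was 12.4 to 14.4 times Tfrc within a library. Pcbp2 (66.4, 66.5 and 63.6 RPKM) and Pcbp1 (62.7, 62.5 and 63.0 RPKM), RNA-binding proteins that also deliver iron to ferritin, followed. Steap4, a metalloreductase, had 42.9, 37.4 and 36.9 RPKM and was higher in library 1 than in the other two. The genes that sense iron were lower. Ireb2 and Aco1, which encode the iron-regulatory proteins, averaged 10.6 and 9.50 RPKM, and Ncoa4, the receptor for ferritin autophagy, averaged 7.54 RPKM. Slc40a1, the iron exporter ferroportin, was under the detection threshold with 0.278, 0.185 and 0.253 RPKM, and the mitochondrial ferritin Ftmt was listed at 0 in every library. Fth1 and Ftl1 transcripts were thus the most abundant of the iron genes examined, and those of the exporter and of Ftmt were among the least.

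**Figure D3:**
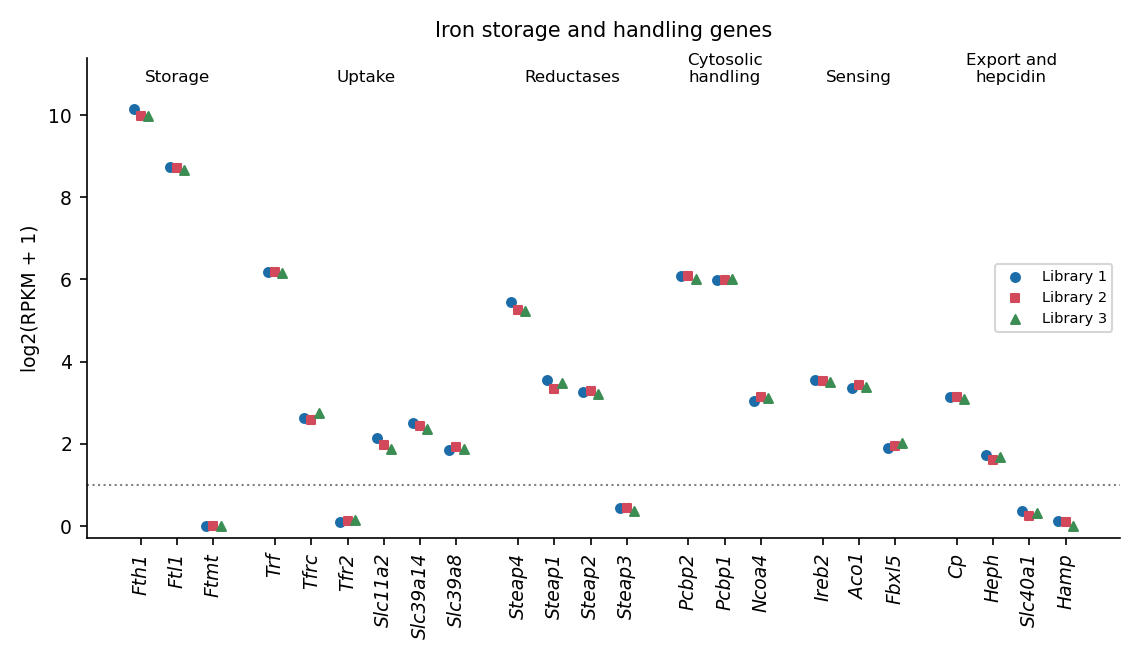
Levels of iron genes as log2(RPKM + 1) in libraries 1, 2 and 3, grouped by role; the dotted line marks 1 RPKM. Fth1 and Ftl1 stand above 8, Trf, Pcbp1 and Pcbp2 near 6, and Slc40a1, Tfr2, Steap3, Hamp and Ftmt lie below the dotted line in all 3 libraries.

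Near-identical copies could take reads from, or lend them to, some of these genes, since the treatment of reads with several locations is not given in the sources used here. Copies were counted where a transcript of another gene matched at 90% identity or more over at least 200 bases and 50% of its length. The 35 genes had 18 such copies, belonging to 8 of them, and 10 copies averaged 1 RPKM or more. Ftl1 had 7 copies, of which Gm10116 (13.0 RPKM), Ftl2 (9.75 RPKM), Gm12164 (2.09 RPKM) and Gm15590 (1.41 RPKM) exceeded 1 RPKM. All 7 summed to 6.49% of the value of Ftl1. Fth1 had a single copy, Gm6977, at 2.99 RPKM, or 0.285% of its own value. With the copies added, the log2 ratio of Fth1 to Ftl1 was 1.24.

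Among the enzymes that act on superoxide, the cytosolic form prevailed. Sod1, the copper-zinc enzyme of the cytosol (chr16:90220754-90226329, plus strand), had 148, 142 and 145 RPKM and was the third highest of the 35 genes. Sod2, the manganese enzyme of mitochondria, had 15.5, 15.8 and 15.5 RPKM. The Sod1 value was 8.98 to 9.59 times the Sod2 value within a library, a log2 ratio of 3.22 ± 0.05 (SD, n = 3). Sod3, the secreted enzyme that binds the extracellular matrix, had 11.9, 11.8 and 10.7 RPKM, all below every Sod2 value. Sod1 has 1 copy, the processed pseudogene Gm8566, at 14.0 RPKM, which equals 9.66% of Sod1.

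Cat, the peroxisomal catalase, had 18.6, 19.3 and 19.8 RPKM, close to the median of the 35 genes. Its values overlapped with those of its neighbours Prdx6 and Prdx4 in the order of means, so no rank among these is given. The listed sources of superoxide were mostly low, with 2 of 10 detected. Cyba, the membrane subunit that several NADPH oxidases share, had 49.7, 46.2 and 49.9 RPKM, while Nox4, its catalytic partner in many stromal cells, had 0.549, 0.523 and 0.601 RPKM. Xdh, xanthine dehydrogenase, which can also yield superoxide, had 17.4, 17.7 and 16.5 RPKM. Nox3, the oxidase of the inner ear, was listed at 0.

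The 5 glutathione peroxidases summed to 285 ± 5.99 RPKM (SD, n = 3), the largest sum of any role after iron. Gpx1, the main cytosolic enzyme (chr9:108338903-108340343, plus strand), had 128, 127 and 120 RPKM. Gpx3, the secreted plasma form, had 54.1, 57 and 55.1 RPKM, so a gene for an extracellular enzyme was second in the family. Gpx4, which reduces lipid hydroperoxides within membranes and restrains ferroptosis, had 44.6, 49.1 and 48.4 RPKM. It was below Gpx1 in each library, at 0.348 to 0.404 times its value and a log2 ratio of −1.40 ± 0.11. Gpx8 (40.6, 43.4 and 40.9 RPKM) and Gpx7 (15.7, 15.1 and 16.0 RPKM) belong to the endoplasmic reticulum, and Gpx8 was 2.55 to 2.88 times Gpx7.

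The catalytic residue separates these 5 genes into 2 kinds and links 3 of them to Txnrd1. Gpx1, Gpx3, Gpx4 and Txnrd1 are selenoproteins, in which a TGA codon, normally a stop, is read as selenocysteine. The codon for that residue is in capitals in the following coding sequences, with the codon aligned to that of Gpx1 shown for Gpx7 and Gpx8.

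Gpx1, codon at chr9:108339451-108339453, plus strand: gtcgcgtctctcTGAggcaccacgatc

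Gpx3, codon at chr11:54907256-54907258, plus strand: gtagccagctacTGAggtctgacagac

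Gpx4, codon at chr10:80054737-80054739, plus strand: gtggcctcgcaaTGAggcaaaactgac

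Gpx8, codon at chr13:113045661-113045663, minus strand: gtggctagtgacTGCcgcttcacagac

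Gpx7, codon at chr4:108403430-108403432, minus strand: gtagctagcgaaTGTggcttcacagac

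Txnrd1, codon at chr10:82896037-82896039, plus strand: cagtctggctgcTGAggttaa

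Gpx7 and Gpx8 have a cysteine codon at this place, and in Txnrd1 the TGA is the last codon but one before the stop. Selenocysteine is annotated in 24 genes, which include these 4 of the 35. All 4 selenoprotein genes had means above 40 RPKM, at 125 (Gpx1), 76.2 (Txnrd1), 55.4 (Gpx3) and 47.4 RPKM (Gpx4). The machinery that inserts the residue was detected in full, with 6 of 6 listed genes, but at lower levels. Sephs2, which makes the selenium donor and is itself a selenoprotein, averaged 9.37 RPKM. Trnau1ap (6.16 RPKM) and Secisbp2 (3.67 RPKM) followed, and Sepsecs, which converts the residue on its tRNA, was the lowest at 1.93 RPKM.

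The thioredoxin system was represented mainly by its cytosolic members. Txn1, the small disulfide reductase (chr4:57943373-57956411, minus strand), had 79.7, 76.5 and 76.8 RPKM. Txnrd1, the reductase that regenerates it with NADPH (chr10:82833951-82897712, plus strand), had 76.1, 76.0 and 76.4 RPKM. The enzyme and its substrate thus had means within 2 RPKM of each other, although every Txn1 value was above every Txnrd1 value. The nearest values, 76.5 and 76.4 RPKM, differed by less than the counting error. Their mitochondrial counterparts were lower, with Txn1 5.78 to 6.48 times Txn2 and Txnrd1 49.1 to 60.6 times Txnrd2. Srxn1, which repairs overoxidised peroxiredoxins, had 15.2, 15.4 and 15.4 RPKM.

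All 11 listed thioredoxin, glutaredoxin and sestrin genes beside the 35 were detected. Glrx3, a cytosolic iron-sulfur glutaredoxin, was the highest at 58.4 RPKM, and Glrx2 was the lowest at 1.20 RPKM. Txnip, which binds thioredoxin and blocks it, averaged 21.9 RPKM. Glrx5, a mitochondrial glutaredoxin of iron-sulfur cluster assembly, had 19.1, 21.9 and 30.2 RPKM, and its highest library was 1.58 times its lowest, a wider span than that of any of the 35 genes.

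The 6 peroxiredoxins, thiol peroxidases of different compartments, spanned 13.2 to 57.9 RPKM in mean. Prdx5, found in mitochondria, peroxisomes and cytosol, led with 57.8, 57.9 and 58.1 RPKM and had a coefficient of variation of 0.331%. Prdx1 (48.7, 47.2 and 48.7 RPKM) and Prdx2 (34.8, 31.2 and 32.4 RPKM) are the cytosolic pair recycled by thioredoxin. The values of the pair did not overlap, and Prdx1 was 1.40 to 1.51 times Prdx2, a log2 ratio of 0.56 ± 0.06. Prdx6, which also has phospholipase activity, had 20.1, 19.5 and 19.2 RPKM.

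Prdx4, the endoplasmic reticulum and secreted form, had 18.8, 18.1 and 17.8 RPKM, and Prdx3, the mitochondrial form, had 13.9, 13.3 and 12.4 RPKM. Prdx5 was 4.14 to 4.70 times Prdx3. Prdx3 was the lowest of the family in all 3 libraries. Prdx1 has 3 copies, of which Gm21399 (2.95 RPKM) and Gm7204 (1.5 RPKM) exceeded 1 RPKM, and the 3 summed to 9.30% of Prdx1. With copies added to both genes the log2 ratio of Prdx1 to Prdx2 was 0.65.

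By place of action, the 20 genes of products assigned mainly to the cytosol held 84.3 ± 0.570% of the summed RPKM of the 35 genes, most of it ferritin. Those of the endoplasmic reticulum (Gpx7, Gpx8 and Prdx4) held 2.92 ± 0.115%, the secreted pair Gpx3 and Sod3 held 2.58 ± 0.128%, and the mitochondrial pair Sod2 and Prdx3 held 1.11 ± 0.0280% (SD, n = 3 each). The order of these last 3 shares was the same in each library. Compartments were assigned from general knowledge of the proteins and were not measured, and some products counted as cytosolic, such as those of Sod1, Gpx1 and Gsr, are also found in mitochondria.

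Genes for making and recycling glutathione had the lowest median of any role, 7.08 RPKM. Gclc, the catalytic subunit of glutamate-cysteine ligase, which carries out the rate-limiting step, had 7.20, 7.25 and 7.56 RPKM. Gclm, its modifier subunit, had 6.13, 6.99 and 7.37 RPKM. The values of the subunits overlapped, and Gclm was 0.852 to 0.976 times Gclc within a library, a log2 ratio of −0.11 ± 0.11. Gss, glutathione synthetase, which adds glycine, was the lowest of all 35 genes at 4.45, 4.28 and 4.42 RPKM.

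Gsr, which reduces oxidised glutathione back, had 13.6, 12.2 and 13.3 RPKM and was 2.86 to 3.05 times Gss. The 4 genes of this role summed to 31.6 ± 0.984 RPKM, or 1.22 ± 0.0636% of the 35 genes. Of 9 listed genes for glutathione precursors and breakdown, 6 were detected, led by Slc3a2, the heavy chain of several amino acid transporters, at 42.6 RPKM. Cth, which makes cysteine from cystathionine, averaged 6.39 RPKM, and Chac1, which degrades glutathione, averaged 6.06 RPKM. Ggt1, the surface enzyme that breaks glutathione down outside the cell, was the lowest at 0.0378 RPKM.

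Slc7a11, the light chain that joins Slc3a2 to form the cystine importer, had 0.940, 1.04 and 1.05 RPKM, which is at the detection threshold. Slc3a2 exceeded it 39.4- to 45.8-fold within a library. Slc7a11 was also the lowest of the 15 other reported NRF2 targets listed, of which the other 14 were detected. Ephx1, an epoxide hydrolase, was the highest of these at 54.9 RPKM, followed by the pentose phosphate enzymes Taldo1 (40.2 RPKM) and Tkt (17.9 RPKM).

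The 6 glutathione transferases, which join glutathione to electrophiles, summed to 158 ± 5.11 RPKM (SD, n = 3). Gsto1, the omega-class enzyme, had 40.6, 39.1 and 41.9 RPKM, and the pi-class Gstp1 had 34.5, 35.9 and 34.0 RPKM. Of the mu-class neighbours on chromosome 3, Gstm2 had 34.3, 31.8 and 29.9 RPKM, and Gstm1, the lowest of the 6 by mean, had 16.3, 14.5 and 14.9 RPKM. The log2 ratio of Gstm2 to Gstm1 was 1.07 ± 0.06. The alpha-class Gsta4, which acts on the lipid peroxidation product hydroxynonenal, had 18.9, 17.1 and 17.1 RPKM, and the membrane-bound Mgst1 had 19.5, 18.1 and 16.6 RPKM.

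Gstp1 had the largest share of near-identical copies among the 35. Its copies Gstp2 (2.68 RPKM) and WI1-1003N17.1 (5.53 RPKM), at 98.2 and 97.6% identity, summed to 23.6% of it, and it was the only one of the 35 genes with copies above 10% of its own level. Of the 20 other listed peroxidases and transferases, 8 were detected. Gstm5 (9.13 RPKM), Gstk1 (6.28 RPKM) and Gstm4 (4.74 RPKM) led, all lower than every one of the 6 transferases among the 35, and Gpx5, the epididymal peroxidase, was listed at 0.

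Hmox1, the inducible haem oxygenase that releases iron, carbon monoxide and biliverdin from haem (chr8:75093621-75100589, plus strand), had 57.4, 52.4 and 57.7 RPKM. It was lower in library 2 than in the other two. It exceeded the constitutive Hmox2 4.87- to 5.71-fold within a library. All 6 listed haem and bile pigment genes that were matched were detected, with Fech, the last step of haem synthesis, highest at 17.9 RPKM, Blvrb at 9.54 RPKM and Blvra lowest at 4.27 RPKM. Nqo1, a quinone reductase and a standard readout of NRF2 activity, had 8.69, 8.86 and 9.23 RPKM. Hmox1 and Nqo1, both known as NRF2-induced genes, did not overlap in level.

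The metallothioneins, metal-binding thiol proteins, comprised a pair of abundant genes and a pair near 0. Mt1 had 186, 165 and 161 RPKM and Mt2 had 59.5, 51.8 and 52.8 RPKM, while Mt3, a brain form, was listed at 0 and Mt4, an epithelial form, averaged 0.0531 RPKM. Both abundant genes were highest in library 1.

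Nfe2l2, the regulator, had 25.5, 24.7 and 24.7 RPKM (chr2:75675513-75704641, minus strand). Keap1, its inhibitor (chr9:21229730-21239361, minus strand), had 6.11, 6.70 and 6.89 RPKM. Nfe2l2 mRNA was 3.59 to 4.18 times Keap1 mRNA, a log2 ratio of 1.93 ± 0.12, and library 1 was the highest for Nfe2l2 and the lowest for Keap1. NRF2 is controlled mainly as a protein, which RNA levels do not measure. Of the 11 listed partners and regulators, 10 were detected. Nfe2l1, a related factor, was the highest at 71.1 RPKM and 2.80 to 2.91 times Nfe2l2. Sqstm1, the autophagy receptor that sequesters KEAP1, averaged 65.3 RPKM, and Cul3, the ligase scaffold that KEAP1 recruits, averaged 18.5 RPKM. Bach1, a repressor at the same DNA elements, was 0.561 to 0.594 times Nfe2l2, and Bach2, its relative in lymphocytes, was the lowest at 1.01 RPKM.

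The core letters of the antioxidant response element, TGACNNNGC, were searched on both strands of RefSeq promoter windows (GRCm38.p6, 250 bases before to 50 bases after the start site). A window was given for 29 of the 35 genes, all but Gclc, Gsr, Gsta4, Hmox1, Prdx6 and Sod3. The letters were in a window of 7 of the 29, namely Gclm, Mgst1, Nfe2l2, Prdx1, Sod1, Srxn1 and Txnrd1, against 14.0% of all 27025 genes with a window. 2 of these matches, those of Gclm and Prdx1, are shown as examples, and some matches of the other genes lay nearer to the start site. The 9 letters are in capitals and read on the strand opposite to the gene.

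Gclm, centre 130 bases before the start site, chr3:122245413-122245441, minus strand: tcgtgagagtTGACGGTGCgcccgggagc

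Prdx1, centre 129 bases before the start site, chr4:116685456-116685484, minus strand: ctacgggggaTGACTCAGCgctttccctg

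The 7 genes with a match included the third highest (Sod1) and the fourth lowest (Gclm) of the 35 in mean RPKM. Factor binding was not measured, and a window without the letters says nothing of elements further away.

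The order of the 35 means was only in part resolved by the 3 libraries. Of the 34 pairs of neighbours in the order, 20 had values that did not overlap and 14 had values that did. The top 7 genes, in the order Fth1, Ftl1, Sod1, Gpx1, Txn1, Txnrd1 and Prdx5, were each apart from the next. For Txn1 over Txnrd1 the nearest values were 76.5 and 76.4 RPKM, and for Prdx5 over Hmox1 57.8 and 57.7 RPKM. Both gaps were smaller than the counting error (1.98% for Txn1 and 1.61% for Prdx5), so these orders are not resolved. Overlaps included Hmox1 with Gpx3, Prdx1 with Gpx4, Gpx8 with Gsto1, and the run Prdx6, Cat, Prdx4, Mgst1 and Gsta4. At the low end Gclc, Gclm and Keap1 overlapped in turn, while Tfrc and Gss were apart from each other and from Keap1.

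**Figure D4:**
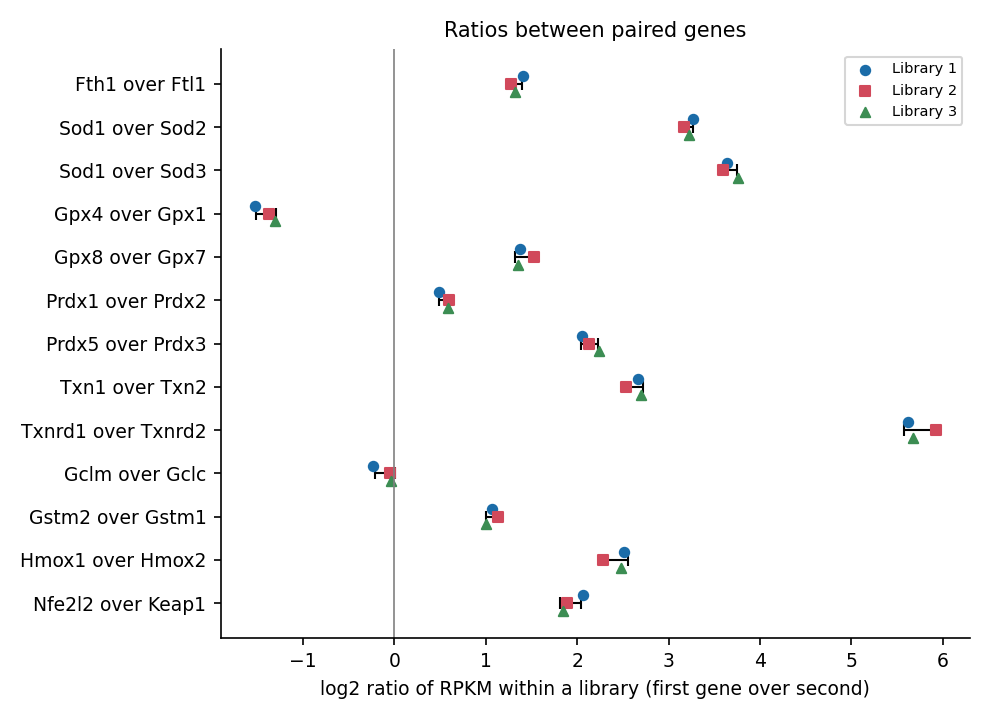
Log2 ratio of RPKM between paired genes within libraries 1, 2 and 3 (points), with the SD around the mean as a bar. Of the pairs named on the axis, Gpx4 over Gpx1 and Gclm over Gclc lie left of 0 in every library and the others right of it, with Txnrd1 over Txnrd2 furthest at a mean of 5.74.

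How far the 35 genes differed between libraries depended on the scale. On RPKM, in none of the 35 did the highest library exceed the lowest by 25% or more, against 4.62% of the 6646 protein-coding genes in the same range of mean RPKM. The 6646 genes, called of like level below, include the 35 and share their range but were not matched in level. Between 2.5 and 3.0 on log2(mean RPKM + 1) lay 1505 of them and 3 of the 35. Between 4.0 and 4.5 lay 849 of them and 9 of the 35. The span was narrowest in Txnrd1 (76.0 to 76.4 RPKM) and widest in Gclm, at 1.20-fold (6.13 to 7.37 RPKM). Behind Gclm came Mgst1 at 1.18-fold, Gstm2 at 1.15-fold and Tfrc at 1.14-fold. The median SD of log2(RPKM + 1) was 0.0455 over the 35 genes and 0.0532 over the genes of like level, and 21 of the 35 genes were below 0.0532. With so low a share in genes of like level, the absence of such genes among 35 says little about these genes in particular. On TPM (RPKM rescaled to the same sum in every library) 10 of the 35 exceeded the limit, against 24.9% of the same 6646 genes. The median SD of log2(TPM + 1) was 0.131 over the 35 genes and 0.107 over the genes of like level.

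Libraries 1, 2 and 3 were the highest library for 17, 5 and 13 of the genes, against shares of 33.8, 33.2 and 33.1% among genes of like level. The 6 genes furthest above their own mean in library 1 were Mgst1, Fth1, Gstm2, Gstm1, Gsta4 and Prdx2, by 0.09 to 0.12 on the log2 scale. Gclm, Keap1 and Gpx4 were lowest there relative to their means, at −0.15, −0.10 and −0.09. The summed mesothelial markers were also highest in library 1 (231 RPKM, against 211 and 214 RPKM in libraries 2 and 3). Upk1b, Upk3b, Lrrn4, Krt19, Msln, Wt1 and Muc16 were each highest in library 1, whereas Krt18 was lowest in library 1 and Gpm6a highest in library 2. The mature adipocyte sum was likewise highest in library 1 (20.9, 19.7 and 19.5 RPKM), as was that of the undetected erythroid markers. The MSC surface sum (568, 586 and 580 RPKM) and the haematopoietic sum were lowest there. The macrophage and endothelial sums were highest in library 3. The part of any of these cells in these values was not tested. The median deviation of detected protein-coding genes from their own mean over libraries was at most 0.005 on the log2 scale in any library, so RPKM values were not rescaled, and these directions are relative to the median gene.

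**Figure D5:**
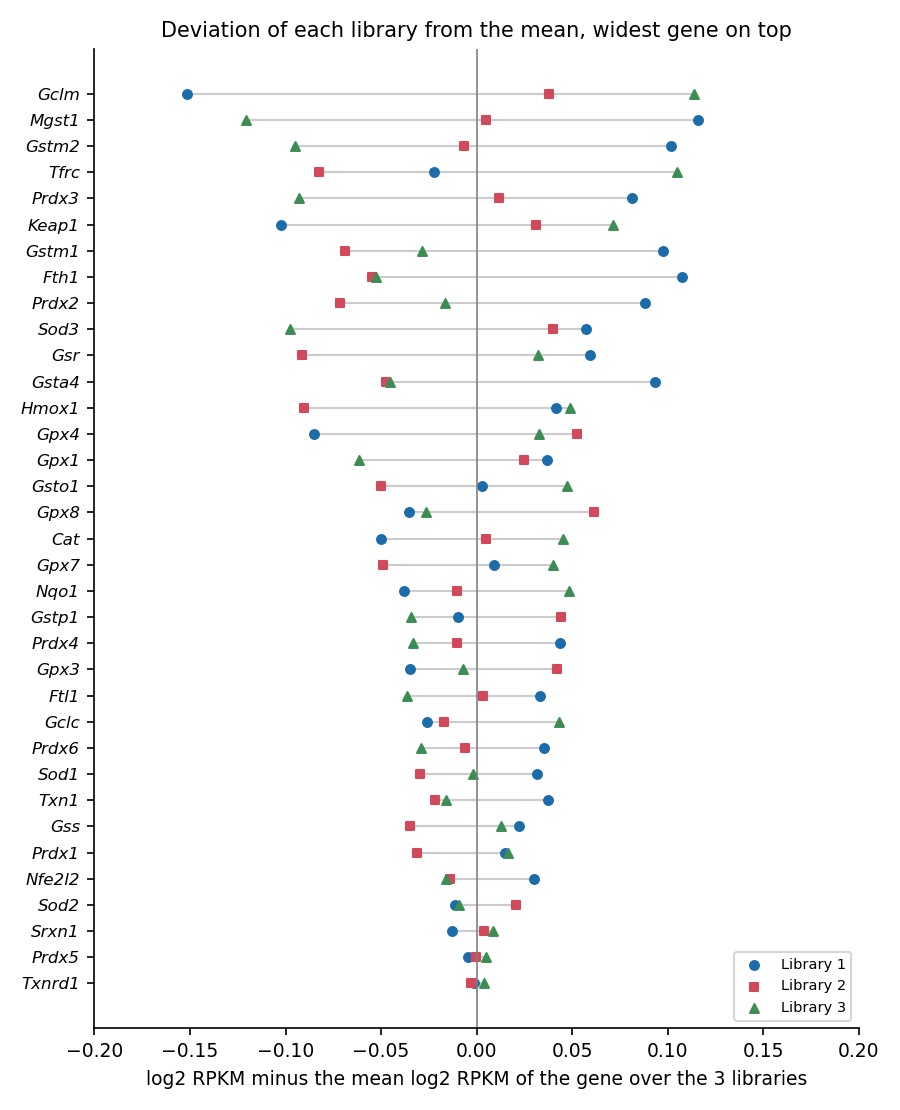
Log2 RPKM of each gene in libraries 1, 2 and 3 minus the gene's mean over them, ordered by the ratio of highest to lowest library. All deviations lie within 0.16 of 0, with Gclm on top and Txnrd1 at the bottom.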

How the data were processed

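RNA of 3 cultured MSC libraries was purified with the miRNeasy kit and made into libraries with the TruSeq V2 kit, per the labels' protocols. The authors deposited 1 table of RPKM values per gene and library. The submitters' processing notes name the build mm10. The aligner, counting tool, use of strand, annotation release and handling of reads with several locations were not given in the sources used here.

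The RPKM values were used as deposited, with a pseudocount of 1 only where log2(RPKM + 1) is named, which understates differences between low genes. Of 43346 identifiers, 42462 matched GENCODE M21 (GRCm38, the assembly of mm10), which supplied positions, lengths and transcripts. Library totals were fitted so that RPKM times total and length gave whole reads, with length as all M21 exons of a gene plus 1 base. Then 77.7 to 78.1% of genes under 1000 reads were whole within 0.05. On simulated data of 42462 genes the totals were recovered within 11 reads. For 34 of 35 followed genes the fitted length was the true length or a whole fraction of it. Exact recovery of lengths was therefore not tested. For 21 of these genes the M21 length plus 1 base fitted, and for 14 the smallest length that fitted was used. The counting error covers counting only. Copies were found with BLAST 2.17.0; the requirement that a match cover 50% of the copy was added after repeats shared by unrelated transcripts were seen. Promoter windows came from RefSeq (GRCm38.p6). Python 3.11.15, numpy 2.4.6, pandas 2.3.3 and matplotlib 3.10.9 were used.

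The 3 libraries form 1 group and no p-value was computed. The followed genes, the 10 lists of other genes and the 7 marker lists were chosen with earlier results of these data known. All 35 genes are named; of each list the 3 highest and the lowest by mean, and of copies those at 1 RPKM or more, with further list genes named after their values were seen; some are not reported here. Of 116 listed genes 115 were matched (Flvcr1 was not) and 83 detected. Alternatives were other detection thresholds, other pseudocounts, TPM, scaling by the median ratio, added copies and leaving out each library.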

Additional observations from a re-analysis of the deposited data

How the results depend on the processing

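No paired analysis was possible because the libraries form a single group. Of 57 alternative values for the main results, 47 kept their direction and stayed within 1 SD or 1.5 times, and none reversed. The 47 include every value with 1 library left out. A mean with 1 of 3 libraries left out cannot move by 1 SD, so those values give a range only. All values that moved thus came from the other alternatives. Some of those could not move either. Gclm, Gclc, Nfe2l2, Keap1, Gpx4 and Gpx1 have no copies, so adding copies left their ratios unchanged. A lower detection threshold could not lower the count detected. A higher limit between libraries, or 1 added to each RPKM, could not raise a count of 0 past it. Counts and SDs cannot change sign, so only differences and ratios could have reversed. Adding 1 to both genes of a ratio cannot reverse it, so the absence of reversals says little. The median of the 35 genes minus the protein-coding median (3.53) was 4.46 with a pseudocount of 0.1, 1.47 over detected genes and 2.64 on TPM. With copies added, the log2 ratio was 1.24 for Fth1 over Ftl1, 0.65 for Prdx1 over Prdx2 and 3.35 for Sod1 over Sod2; with 1 added to each RPKM it was 3.14 for Sod1 over Sod2 and 1.78 for Nfe2l2 over Keap1. On TPM, chosen after seeing the data, the median SD between libraries was 0.131 and 10 of the 35 genes passed the limit of 25% between libraries, against 24.9% of genes of like level; Gm23935 held 80.6 to 86.1% of the summed RPKM, and the rescaling shifted the median gene by 0.14, −0.06 and −0.08 in libraries 1, 2 and 3. Leaving out each library gave 35 genes detected throughout, 22 to 23 neighbouring pairs apart and 0 genes past that limit. A gene detected in every library stays detected with 1 left out, and a pair that is apart stays apart. The ratio of highest to lowest library cannot rise either, so these counts were no check of stability. The median difference was then 3.52 to 3.54 and the median SD 0.0331 to 0.0434. The log2 ratios without a library were 1.29 to 1.36 (Fth1 over Ftl1), 0.54 to 0.59 (Prdx1 over Prdx2), 3.20 to 3.24 (Sod1 over Sod2), −0.14 to −0.04 (Gclm over Gclc), 1.86 to 1.97 (Nfe2l2 over Keap1) and −1.45 to −1.34 (Gpx4 over Gpx1). With 3 libraries of unknown independence, the spread over mice was not measured here.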
